A study of Mus musculus with 6 samples.

Results

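The transcripts of 31 genes used by Schwann cells and satellite glia, the non-neuronal cells that wrap axons and cell bodies in the dorsal root ganglion (DRG), were followed in control and Tlx3cko DRGs. The genes were taken by symbol from a list of myelin, Schwann cell and satellite glia genes. All 31 matched 1 row each among the 47937 rows of the table of read counts per gene. DRG RNA (cervical to lumbar levels) of C57BL/6 mice aged about 2 months was sequenced as 3 control and 3 Tlx3cko libraries. The label of the control mice is wild type, while the study calls them controls, and the Tlx3cko mice carry Tlx3f/f;SNS-cre. SNS-cre (Nav1.8-Cre) puts the recombinase under the promoter of the sodium channel Nav1.8, which is active in most nociceptive neurons from late embryonic life, so the deletion was aimed at neurons and not at glia. In the whole ganglion Tlx3 itself was still read, at normalized counts of 1941 to 2256 in the controls and of 1380 to 1652 in Tlx3cko DRGs.

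Schwann cells wrap axons of the peripheral nerve, and those around large axons build the myelin sheath from a few abundant membrane proteins and from cholesterol and galactolipids. Satellite glia enclose the cell bodies of sensory neurons, buffer potassium and clear glutamate. Both lineages arise from the neural crest under the transcription factor Sox10, and myelination is driven by Pou3f1 and then Egr2 (Krox20) in response to neuregulin signals from the axon.

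Values are normalized counts, meaning read counts brought to a common (mean effective) library size, with n = 3 libraries per genotype throughout. Each difference comes from the quasi-likelihood test of edgeR, fitted across 20006 genes with Benjamini-Hochberg adjustment, and a gene is called when its adjusted p is under 0.05. The p-values set each difference between genotypes against the spread between these libraries. In RNA of the whole ganglion, fewer cells of a type and less RNA per cell cannot be told apart. The libraries held 11458299 to 18775628 counts. Xist was read (493 and 591 counts) and Y-linked Ddx3y was not (0 counts) in control replicates 2 and 1, while the third control and the Tlx3cko libraries showed the opposite (Xist at most 2, Ddx3y 273 to 525). Sex was thus unevenly spread over the genotypes, and calls that were lost in a fit with sex as a term are given as such. Since no Tlx3cko library had Xist, that fit takes the genotype difference from control replicate 3 alone, as does a fit without control replicates 1 and 2. The lone control is then assumed to vary like the other libraries, and these fits count as 1 check and not as separate ones.

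The summed level of the glial genes overlapped between the genotypes, at 92710, 100100 and 103100 normalized counts in control replicates 1 to 3 and at 105200, 98820 and 99440 in Tlx3cko replicates 1 to 3. Abundant genes carry this sum, which says little of the scarcer members. Apoe alone had a mean of 33980 normalized counts in control and 37370 in Tlx3cko libraries. The glial genes took 0.624% to 0.704% of all counts of a library. Of the 31 genes, 30 had enough counts to be tested. Egr2 alone was called higher and 0 were called lower, where 4.25% of all genes tested were called in either direction, 1.69% higher and 2.56% lower. By DESeq2 5 members were called higher and 1 lower, where 1149 of the 20006 genes were called in either direction, 505 higher and 644 lower. With edgeR 8 members had an unadjusted p under 0.05, or 26.7% of those tested against 14.5% of all genes. The libraries of the genotypes did not overlap for 9 members (30% of them, against 19.7% of all genes tested), 6 with Tlx3cko higher (background 8.87%) and 3 with Tlx3cko lower (background 10.8%). The median log2 fold change of Tlx3cko over control was 0.11 for the tested members and 0.00 for all genes. With sex as a term, or with control replicate 3 as the one control, it was 0.005 for the members and 0.011 for all genes. The 95% confidence interval of the log2 fold change lay within 1 of 0 on either side for 27 of the 30 members, the others being Egr2, Gfap and Aqp4.

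**Figure D1:**
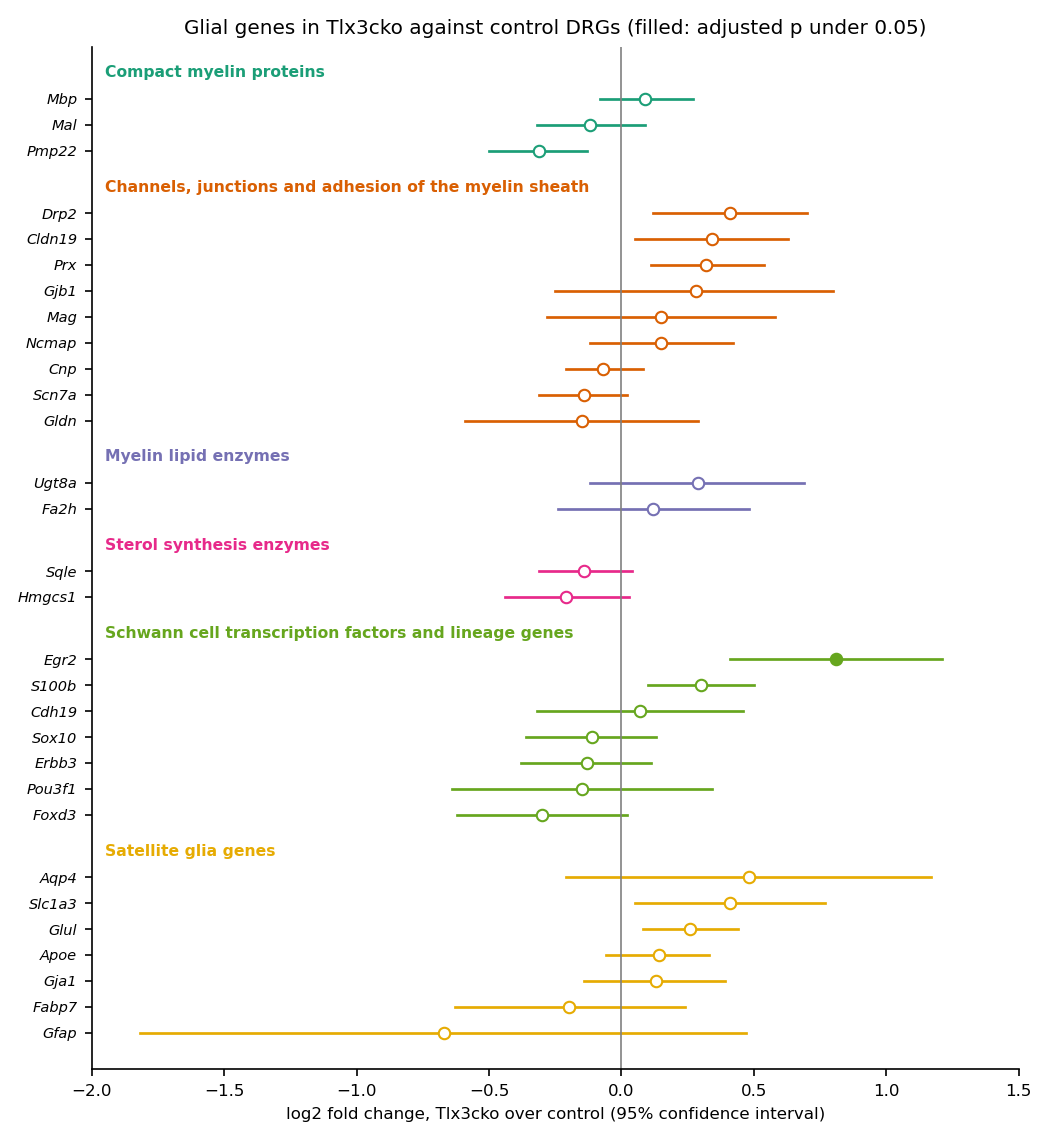
Log2 fold change of Tlx3cko over control with its 95% confidence interval (lines) for the 30 tested glial genes, grouped by role, with filled circles for genes called at an adjusted p under 0.05. Egr2 at 0.81 is the one filled circle, and the interval of Gfap, from -1.82 to 0.47, is the widest.

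Among the transcription factors and lineage genes of Schwann cells, Egr2, the zinc finger factor that switches on the myelin genes, was the member that rose. Egr2 spans positions 67535475 to 67542188 of chromosome 10, plus strand (GRCm38, called mm10 in the submitters' notes). Of the 31 members, 21 had a promoter in the RefSeq sequences used. The 250 bases before a start site of Egr2 at position 67537869, chr10:67537619-67537868 on the plus strand of GRCm38.p6, are shown because the called member holds in them a CArG box (in capitals), the motif known to bind serum response factor:
Egr2: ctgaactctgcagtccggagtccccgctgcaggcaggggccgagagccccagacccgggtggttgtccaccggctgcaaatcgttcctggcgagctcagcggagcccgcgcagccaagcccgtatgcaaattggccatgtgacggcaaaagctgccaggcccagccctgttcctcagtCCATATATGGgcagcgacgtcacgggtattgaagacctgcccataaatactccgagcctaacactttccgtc
This stretch lies inside the annotated gene, between its upstream and downstream start sites, and overlaps no annotated exon. The CArG box begins 72 bases before the start site. On either strand the box is in 1.63% of the 32851 RefSeq promoter windows of 300 bases searched. Of the genes with such windows 1.81% held it. Egr2, which had several windows, was the one member of the 21 with it. The match is a description of the letters and not of a bound site.

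Egr2 was read at 105.8, 95.75 and 125.2 normalized counts in control replicates 1 to 3 and at 158.8, 206.0 and 210.6 in Tlx3cko replicates 1 to 3. All Tlx3cko libraries were above all controls, at 1.76 times the control mean. The means were 108.9 ± 15 and 191.8 ± 28.7 (SD), and the log2 fold change was 0.81 (SE 0.18, adjusted p = 0.0241 by edgeR's quasi-likelihood test). With sex as a term, where control replicate 3 was the one control behind the value, the log2 fold change was 0.61 and was not called (adjusted p = 0.378, or 0.339 in the fit without control replicates 1 and 2). Leaving out 1 library lost the call in 4 of 6 fits, with adjusted p = 0.0586 without control replicate 1, 0.099 without control replicate 2, 0.105 without Tlx3cko replicate 2 and 0.117 without Tlx3cko replicate 3.

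The other factors and lineage genes did not pass the test. Sox10, required for all glia of the peripheral nervous system, was at 1656 ± 253 in control and 1532 ± 158 in Tlx3cko DRGs, and Pou3f1, which precedes Egr2 in Schwann cells, was at 87.16 ± 14.7 and 79.01 ± 14.1. Foxd3, a factor of the neural crest and glial precursors, had a log2 fold change of -0.30 (95% interval -0.62 to 0.02), and Erbb3, the neuregulin receptor, of -0.13 (-0.38 to 0.11). Cdh19, a cadherin of Schwann cell precursors, was spread widely within both genotypes, from 368.1 to 531.3 in control and from 353 to 564.9 in Tlx3cko libraries. S100b, a calcium-binding protein of Schwann cells and satellite glia, was the most abundant of these genes per length (3680 normalized counts per kb of exon). S100b was at 4593, 5272 and 4818 normalized counts in the controls and at 6792, 5261 and 6021 in Tlx3cko libraries, so Tlx3cko replicate 2 fell within the controls. The log2 fold change was 0.30 (SE 0.09, adjusted p = 0.11 by edgeR), and S100b was called higher by DESeq2 (adjusted p = 0.0398) and when genes with few counts were kept in the edgeR fit (0.00937). It was called in 0 of the 6 fits that left out 1 library. With sex as a term its log2 fold change was 0.32 and was not called.

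Egr2 is also an immediate early gene, one of those transcribed within minutes of a stimulus in neurons and other cells, and the same libraries were read for 10 further genes of that class, a list chosen after the values were seen. Of these, 4 were called higher and 0 lower, all 10 had a log2 fold change above 0, and their median was 0.82. Their summed level was 1786, 1762 and 1625 normalized counts in the controls against 2340, 4423 and 2343 in Tlx3cko libraries, with Tlx3cko replicate 2 far above the rest. Whether the rise of Egr2 lay in glia or in neurons cannot be told from RNA of the whole ganglion.

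The called immediate early genes were Egr1, Nr4a1, Arc and Dusp1. Egr1, a zinc finger factor related to Egr2, was at 204, 159.6 and 126.8 in control DRGs and at 264.7, 1167 and 341.5 in Tlx3cko libraries. Its log2 fold change of 1.85 (SE 0.44, adjusted p = 0.0302 by edgeR) fell to 0.91 without Tlx3cko replicate 2 (adjusted p = 0.0451), and its call was lost without control replicate 2 (0.122) or 3 (0.133), by DESeq2 (0.0868) and by limma-voom (0.0991). Arc, a synaptic protein, was more even, at 76.63, 63.83 and 70.2 against 121.3, 147 and 141.7 normalized counts. The log2 fold change of Arc was 0.96 (SE 0.19, adjusted p = 0.0119 by edgeR), a call lost when control replicate 2 (0.0528), Tlx3cko replicate 2 (0.0564) or Tlx3cko replicate 3 (0.0569) was left out. The nuclear receptor Nr4a1 and the phosphatase Dusp1 had log2 fold changes of 0.68 and 0.47 (adjusted p = 0.0256 and 0.0289 by edgeR), with calls kept in 3 and 1 of the 6 fits that left out 1 library. Across those 6 fits 1 to 3 of the 10 genes were called, and 0 were called with sex as a term or with control replicate 3 as the one control. The RefSeq sequences held promoters of 6 of the 10 genes, and 0 of these 6 windows held a CArG box.

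**Figure D2:**
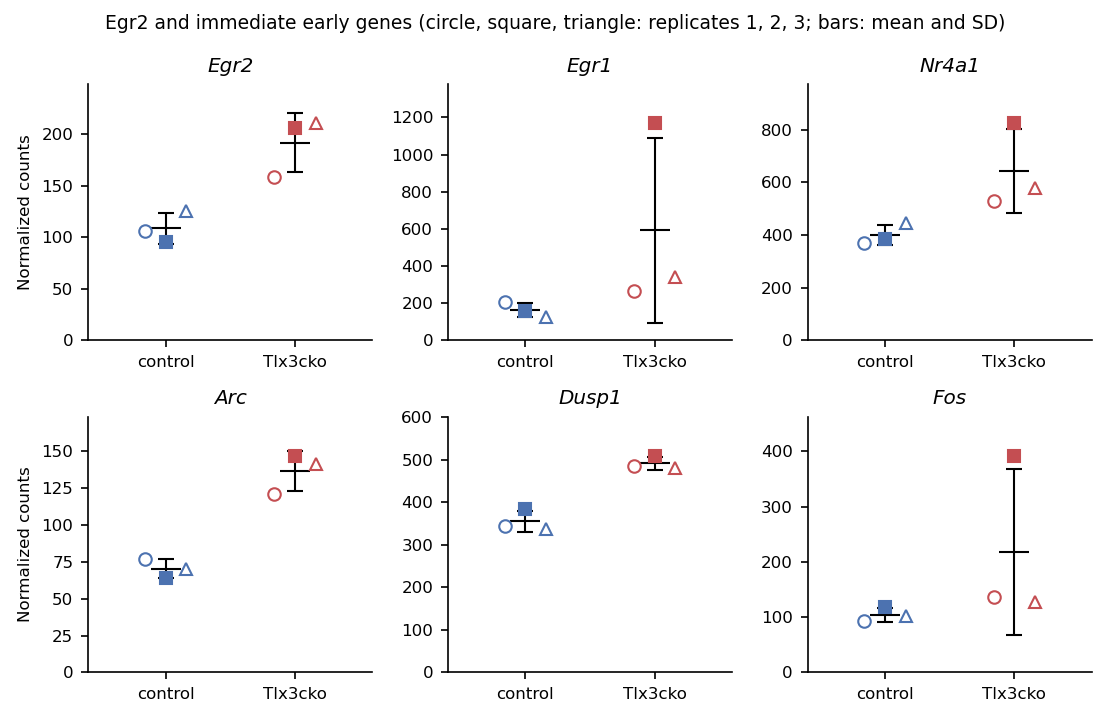
Normalized counts of Egr2 and of 5 immediate early genes in each library (circles, squares and triangles are replicates 1, 2 and 3, with the mean and SD as bars). Egr2, Egr1, Arc and Dusp1 are above every control in all 3 Tlx3cko libraries, and Tlx3cko replicate 2 stands apart for Egr1 (1167) and Fos (392.3).

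Of the proteins of compact myelin 0 were called among the 3 tested. Pmp22, a membrane protein whose dose matters for peripheral myelin, was the most abundant of them per length (4650 normalized counts per kb of exon) and spans positions 63128982 to 63159547 of chromosome 11, plus strand. It was at 11490, 11380 and 13560 normalized counts in the controls and at 10670, 8979 and 9647 in Tlx3cko libraries. All Tlx3cko libraries were below all controls, at 0.804 times the control mean, but the difference did not pass the test (log2 fold change -0.31, SE 0.09, adjusted p = 0.0663 by edgeR). Pmp22 was called lower by DESeq2 (adjusted p = 0.0208) and limma-voom (0.0496), when genes with few counts were kept (0.00278) and without Tlx3cko replicate 1 (0.0394). Without control replicate 3, the highest library, the log2 fold change was -0.23 (adjusted p = 0.221 by edgeR), and without Tlx3cko replicate 2, the lowest, it was -0.25 (0.328). With sex as a term, where control replicate 3 was the one control behind the value, it was -0.47 and was called (adjusted p = 0.0314).

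Mbp, the basic protein of the cytoplasmic face of myelin, was at 10220 ± 898 in control and 10890 ± 671 in Tlx3cko DRGs, and the 95% interval of its log2 fold change ran from -0.08 to 0.27. Mal, a proteolipid of myelin rafts, had a log2 fold change of -0.12 (-0.32 to 0.09). Pmp2, the fatty acid binding protein of myelin, had at most 2 counts in any library and was not tested. Of the annotated exon bases of Pmp2, 86.9% lie also in the same-strand gene Gm37389, with a stretch of 1226 bases at 98% identity or more, and Gm37389 had 0 counts in all libraries. How reads on such shared bases were counted is not given in the sources used here, so the level of Pmp2 is uncertain.

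The genes for channels, junctions and adhesion of the sheath held 5 of the 9 members whose genotypes did not overlap, although 0 were called. Of the 5, 3 had Tlx3cko higher and 2 lower. Among all genes tested 19.7% did not overlap, 8.87% with Tlx3cko higher and 10.8% lower. Prx (periaxin) and Drp2 (dystrophin-related protein 2), which together with dystroglycan anchor the outer surface of the myelinating Schwann cell to its basal lamina, were both higher in all Tlx3cko libraries than in any control. Prx was at 2991, 2236 and 2435 normalized counts in the controls and at 3219, 3274 and 3081 in Tlx3cko libraries. Drp2 was at 1465, 926.5 and 1216 in control DRGs and at 1514, 1565 and 1722 in Tlx3cko libraries. In both genes control replicate 2 was the lowest library, and control replicate 1 came near the Tlx3cko values.

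The log2 fold change was 0.32 for Prx (SE 0.10, adjusted p = 0.103 by edgeR) and 0.41 for Drp2 (SE 0.13, adjusted p = 0.124 by edgeR). Both were called higher by DESeq2 (adjusted p = 0.031 for Prx and 0.0333 for Drp2), with genes of few counts kept (0.0068 and 0.000692), and without control replicate 1 (0.00812 and 0.0171). Without control replicate 2 the log2 fold changes were 0.24 for Prx and 0.26 for Drp2 (adjusted p = 0.332 and 0.324 by edgeR), and neither was called in the other fits that left out 1 library or with sex as a term (0.283 and 0.517). Drp2 and Gjb1 lie on the X chromosome. Prx shares 5.38% of its exon bases with a gene on the other strand, Gm15541, and the use of strand in counting is not given in the sources used here.

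Cldn19, the claudin of Schwann cell tight junctions, also did not overlap between the genotypes, at 379.9, 313.2 and 377.3 against 517.8, 385.8 and 450.7 normalized counts (log2 fold change 0.34, SE 0.14, adjusted p = 0.242 by edgeR). Cnp, a phosphodiesterase that keeps cytoplasmic channels in myelin open, was the most abundant of the 9 genes per length (876 normalized counts per kb of exon). Cnp was at 3299, 3169 and 3313 in control DRGs and at 3064, 3135 and 3147 in Tlx3cko libraries. These values did not overlap, though the control mean was 3260 and the Tlx3cko mean 3116, and the 95% interval of the log2 fold change ran from -0.21 to 0.08. Scn7a, a sodium channel of Schwann cells and some neurons, had a log2 fold change of -0.14 (-0.31 to 0.02), with all Tlx3cko libraries below all controls. The remaining members of this group overlapped, namely Mag, the adhesion protein of the inner sheath (0.15, -0.28 to 0.58), the gap junction protein gene Gjb1 (0.28, -0.25 to 0.80), Gldn, which gathers sodium channels at nodes (-0.15, -0.59 to 0.29), and Ncmap, a membrane protein of non-compact myelin (0.15, -0.12 to 0.42).

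**Figure D3:**
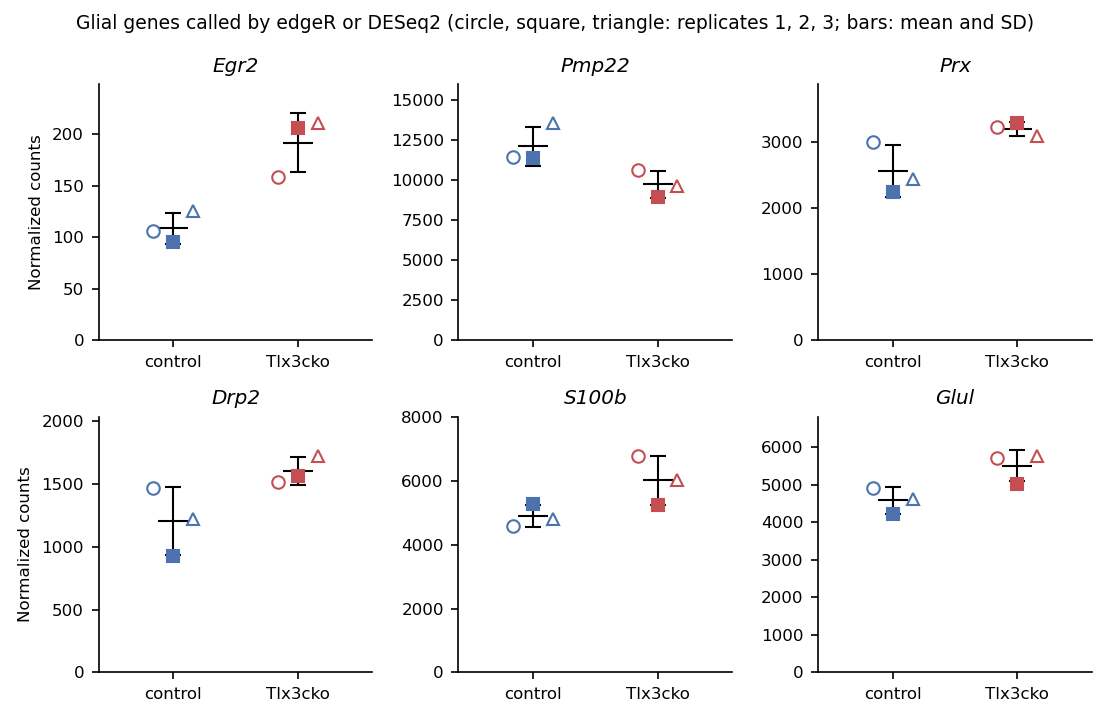
Normalized counts of the 6 glial genes called by edgeR or DESeq2, in each library (circles, squares and triangles are replicates 1, 2 and 3, with the mean and SD as bars). The genotypes do not overlap for Egr2, Pmp22, Prx, Drp2 and Glul, while Tlx3cko replicate 2 of S100b (5261) lies among the controls.

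The myelin sheath genes moved together from library to library within the control genotype. Control replicate 2 was the lowest control for all 14 tested genes of the sheath (compact myelin, channels and junctions, and lipid enzymes), at a median of 85.9% of the control mean, against 108% and 106% in control replicates 1 and 3. Tlx3cko replicate 2 was the lowest of its genotype for 9 of the 14, at a median of 94.6%. The 7 transcription factor and lineage genes did not share this order, since control replicate 1 was the lowest control for 6 of them and control replicate 2 the highest for 4. The part of this spread in the differences between genotypes was not tested beyond leaving out each library. Without control replicate 2 the median log2 fold change of the 30 members was 0.02 in place of 0.11, and without Tlx3cko replicate 2 it was 0.15.

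**Figure D4:**
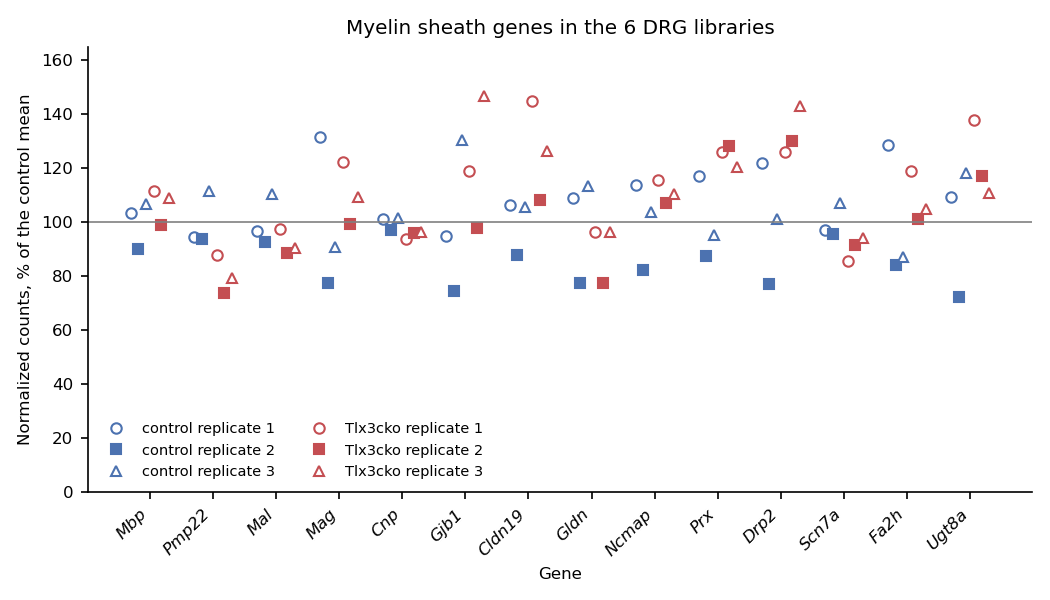
Normalized counts of the 14 tested myelin sheath genes in each library as a percentage of the mean of the 3 control libraries (blue, control and red, Tlx3cko, with circles, squares and triangles for replicates 1, 2 and 3). The filled blue squares of control replicate 2 are the lowest control value of every gene, and the red symbols of Pmp22 lie below its blue ones.

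The lipid enzymes of myelin overlapped between the genotypes. Fa2h, which makes hydroxylated fatty acids for galactolipids, was at 360.5, 236.4 and 244.1 normalized counts in the controls and at 334, 283.4 and 294.3 in Tlx3cko libraries, and was the more abundant of the pair per length (97.1 against 44.9 normalized counts per kb of exon). The log2 fold change of Fa2h was 0.12 (-0.24 to 0.48). Ugt8a, the galactosyltransferase that starts galactolipid synthesis, had a log2 fold change of 0.29 (-0.12 to 0.69). Of 12 other genes of myelin lipids, 0 were called (0 of them had an unadjusted p under 0.05), and Scd2, a fatty acid desaturase and the most abundant per length, was at -0.13 (-0.32 to 0.06).

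Hmgcs1 and Sqle, enzymes of early and middle steps of cholesterol synthesis, which neurons also use, were slightly lower in Tlx3cko DRGs without passing the test. Hmgcs1 spans positions 119690379 to 119708260 of chromosome 13, plus strand. The 250 bases before its RefSeq start site at 119690351, chr13:119690101-119690350 on the plus strand of GRCm38.p6, are shown because they hold the letters TCACNCCAC of a sterol regulatory element (in capitals), the site of the factor that switches on cholesterol genes when sterols are low:
Hmgcs1: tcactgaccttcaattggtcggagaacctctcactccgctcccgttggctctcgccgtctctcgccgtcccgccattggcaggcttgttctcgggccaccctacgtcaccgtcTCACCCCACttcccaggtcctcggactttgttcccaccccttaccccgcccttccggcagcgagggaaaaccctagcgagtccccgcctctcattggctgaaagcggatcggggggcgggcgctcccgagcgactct
The element begins 137 bases before the start site. On either strand TCACNCCAC is in 1.24% of the promoter windows of 300 bases searched and in 1.44% of their genes. Of the 21 members with a promoter, Gfap was the other one that held it, 77 bases before a start site. The letters GCGTGGGCG, bound by factors of the Egr family, were in 0.612% of windows, in 0.707% of genes and in 1 member, Scn7a. No annotated gene overlaps the 250 bases shown.

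Hmgcs1 was at 7500, 8347 and 10280 normalized counts in the controls and at 6775, 7999 and 7894 in Tlx3cko libraries, so only Tlx3cko replicate 1 lay below all controls. This gave a log2 fold change of -0.21 (SE 0.11, adjusted p = 0.428 by edgeR). The value rested on control replicate 3, the highest control, since it was -0.07 without that library (adjusted p = 0.83 by edgeR) and -0.44 with that library as the one control (0.0482, or 0.0669 with sex as a term). Of the exon bases of Hmgcs1, 12.1% are shared with a gene on the other strand. Sqle was at -0.14 (-0.31 to 0.04). Of 23 other genes of sterol synthesis and uptake, 0 were called by edgeR at the adjusted threshold and 6 had an unadjusted p under 0.05. Without control replicate 1, 3 of the 23 were called lower, while 0 were in each of the other fits that left out 1 library, and by DESeq2 2 were. Over the 25 sterol genes with Hmgcs1 and Sqle, control replicate 3 was the highest control for 18, and replicate 1 of each genotype was the lowest of its genotype for 16.

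The genes of satellite glia had 0 calls among 7. Apoe, the lipid carrier protein, was by far the most abundant member per length (16700 normalized counts per kb of exon), and was at 30040, 38150 and 33740 normalized counts in the controls and at 40490, 37070 and 34550 in Tlx3cko libraries. The groups overlapped, with a log2 fold change of 0.14 (-0.06 to 0.33). Glul, the glutamine synthetase that disposes of glutamate taken up by satellite glia, was at 4929, 4212 and 4635 in control DRGs and at 5716, 5035 and 5776 in Tlx3cko libraries. All Tlx3cko libraries were above all controls, and the log2 fold change was 0.26 (SE 0.08, adjusted p = 0.114 by edgeR). Glul was called higher by DESeq2 (adjusted p = 0.0444) and with genes of few counts kept (0.0364).

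Slc1a3, the glutamate transporter GLAST, acts beside Glul and likewise did not overlap, at 124.1, 148.6 and 164.3 against 183.8, 212.6 and 186 normalized counts (log2 fold change 0.41, SE 0.17, adjusted p = 0.257 by edgeR). Gja1 (connexin 43), the gap junction protein of satellite glia, overlapped, at 308.9 ± 25.4 in control and 337.2 ± 24.7 in Tlx3cko DRGs. Fabp7, a fatty acid binding protein of satellite glia, was lowest in replicate 1 of both genotypes, at 1277, 2276 and 2337 against 1289, 1903 and 1962. Its log2 fold change of -0.20 had an interval from -0.63 to 0.24. Gfap, the filament protein that satellite glia raise after nerve injury, was low in both genotypes, with 14 to 64 counts in control and 8 to 46 in Tlx3cko libraries, and its log2 fold change of -0.67 was too uncertain at this depth to show a difference (-1.82 to 0.47). The water channel gene Aqp4 had 40 to 146 counts, with Tlx3cko replicate 2 the lowest library at 52.49 normalized counts and the other two Tlx3cko libraries the highest.

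**Figure D5:**
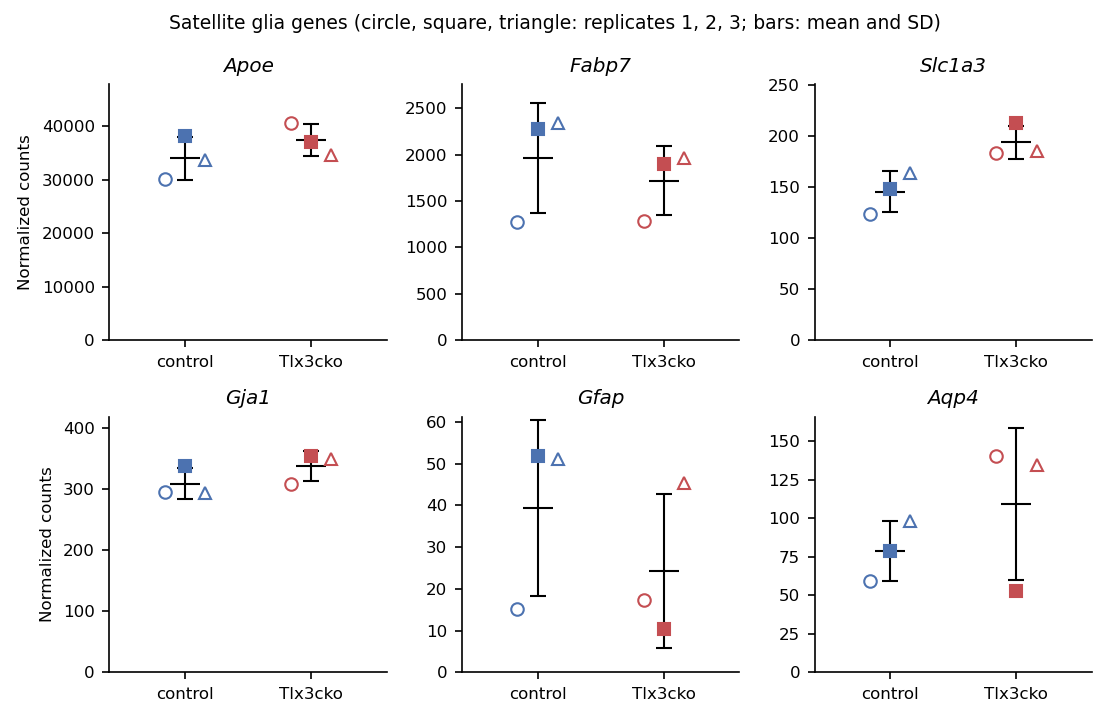
Normalized counts of 6 satellite glia genes in each library (circles, squares and triangles are replicates 1, 2 and 3, with the mean and SD as bars). The genotypes do not overlap for Slc1a3, whereas Fabp7 is lowest in replicate 1 of both genotypes and Gfap and Aqp4 vary widely within a genotype.

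Genes of the same pathways outside the 31 were read from lists, beside the 4.25% of all genes tested that were called. Of 25 other myelin and Schwann cell genes 2 were called lower and 0 higher. Tspan2, a tetraspanin found in myelinating glia and in neurons, was at 1248, 1364 and 1435 normalized counts in the controls and at 934.5, 1037 and 943.8 in Tlx3cko libraries. Its log2 fold change was -0.48 (SE 0.09, adjusted p = 0.00766 by edgeR), a call kept with sex as a term and lost without Tlx3cko replicate 3 (0.0528). Litaf, an endosomal protein mutated in a demyelinating neuropathy, was at 246.1, 450.8 and 327 against 149.2, 196.8 and 194.9. The log2 fold change of Litaf was -0.92 (SE 0.20, adjusted p = 0.0205 by edgeR), with adjusted p = 0.193 with sex as a term. Its call was kept in 1 of the 6 fits that left out 1 library, the one without control replicate 1, with adjusted p between 0.052 and 0.0937 in the others.

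Of 12 tested regulators of Schwann cells 0 were called (2 had an unadjusted p under 0.05 with edgeR), and Jun, the factor of repair Schwann cells and the most abundant of them per length, was at 0.19 (-0.02 to 0.39). Of 11 other genes of satellite glia 0 were called (1 had an unadjusted p under 0.05), with Cst3, a secreted protease inhibitor and the most abundant per length, at 0.03 (-0.13 to 0.20). Of 9 genes of repair Schwann cells 7 had enough counts to be tested, and Gap43, which growing sensory axons also express, was called higher. Of these 7, 5 had a log2 fold change below 0 and 2 above, with a median of -0.10 and 0 called lower. The lowest was Btc, at -1.93 with 2 to 15 counts. Gap43 was at 3798, 3936 and 3305 against 5613, 4539 and 5046 normalized counts (log2 fold change 0.46, SE 0.09, adjusted p = 0.0118 by edgeR), a call kept with sex as a term and lost without control replicate 3 (adjusted p = 0.0509).

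Genes that face Schwann cells from the axon were read in the same libraries. Of 10 genes of the node of Ranvier and the juxtaparanode, the axonal domains that the sheath borders, 4 were called higher and 0 lower, with a median log2 fold change of 0.32, and 2 to 6 were called higher when 1 library was left out. Cntn1 (contactin 1, of the paranode) was at 6673, 5838 and 6330 against 10410, 8283 and 8163 normalized counts, and Nfasc (neurofascin, of axon and glia) at 4367, 3643 and 3958 against 5176, 5831 and 6054. In both genes all Tlx3cko libraries were above all controls. Both had a log2 fold change of 0.51 (adjusted p = 0.0074 for Cntn1 and 0.00384 for Nfasc by edgeR), and both calls were kept in all 6 fits that left out 1 library. Nrcam, a nodal adhesion protein, was at 0.33 (adjusted p = 0.0275 by edgeR) and Cntnap2 (Caspr2), which gathers potassium channels beside the paranode, at 0.39 (adjusted p = 0.0303), with calls kept in 2 and 1 of those 6 fits. Kcna1, a juxtaparanodal potassium channel and the most abundant of the list per length, was at 0.37 and did not pass the test (adjusted p = 0.144 by edgeR). With sex as a term 0 of the 10 were called, and with control replicate 3 as the one control 2 were.

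Of 8 genes of neuregulin and other axonal signals Jag1, a Notch ligand, was called higher, at 249.3, 332.1 and 212.2 against 369.6, 494.7 and 434 normalized counts (log2 fold change 0.71, SE 0.17, adjusted p = 0.0304 by edgeR). The call of Jag1 was kept with sex as a term and was lost when control replicate 1 (0.0812), control replicate 3 (0.119), Tlx3cko replicate 2 (0.148) or Tlx3cko replicate 3 (0.0956) was left out. Cadm3, the axonal adhesion partner of Schwann cells and the most abundant of that list per length, was at 0.07 (-0.08 to 0.21).

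Markers of other cells moved beside these values, and their part in the results was not tested. The summed level of 9 pan-neuronal markers was 411600 to 424200 normalized counts in control and 482400 to 515000 in Tlx3cko libraries. Nefm alone had 167213 to 252951 read counts per library before normalization. Of the 9 markers 7 had a log2 fold change above 0 and 2 below, with a median of 0.17. The neurofilament genes Nefl, Nefm and Nefh were called higher (log2 fold changes 0.23, 0.40 and 0.36, and adjusted p = 0.0386, 0.0047 and 0.00532 by edgeR). The calls of Nefm and Nefh were kept in all 6 fits that left out 1 library and that of Nefl in 1, and all 3 were lost with sex as a term (adjusted p = 0.0588, 0.0614 and 0.312). Fibroblast markers summed to 4280 to 4791 in control and 3312 to 3679 in Tlx3cko libraries, with Col1a1, Dcn and Pdgfra of 5 called lower, 0 to 1 called when a library was left out and 0 called with sex as a term. Endothelial markers summed to 889.4 to 1050 and 1143 to 1220, with Pecam1 of 5 called higher, a call kept in 3 of the 6 fits that left out 1 library and lost with sex as a term (adjusted p = 0.0583). Skeletal muscle markers summed to 88.54 to 1779 and 1478 to 2776, with Myh4 of 5 called higher, a call lost without control replicate 2 (adjusted p = 0.0611) and by DESeq2 (0.0639). Without control replicate 1, 4 of the 5 muscle markers were called higher.

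Of the markers of oligodendrocytes, the myelinating cells of the spinal cord, Mog, Opalin, Olig2 and Klk6 had at most 2 counts in any library and Opalin 0 in all 6. Mobp had 14 to 58 counts, Ermn 12 to 45 and Hapln2 2 to 6, and the list of 7 summed to 44.67 to 94.75 normalized counts in control and 33.69 to 101.4 in Tlx3cko libraries. Astrocyte markers summed to 376 to 437.1 and 367.4 to 540.3, macrophage markers to 670.8 to 818.8 and 622.7 to 686.9, blood markers to 1306 to 3405 and 1492 to 2113, and adipocyte markers to 2.393 to 10.97 and 2.624 to 9.624, with 0 genes called in each of these lists.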

How the data were processed

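Total RNA of DRGs was sequenced in 150 bp paired-end reads by the study, and the authors deposited raw read counts per gene for 6 libraries, without normalization. The submitters' processing notes name STAR 2.5.2a and the genome build mm10, while the counting program and the use of strand are not given in the sources used here. Of the 47937 rows of the table, 47729 carry Ensembl identifiers, of which 47310 matched a symbol in GENCODE M21, and 208 are loci outside the annotation. The groups follow the labels.

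Genes with at least 10 counts in total (20006) entered the quasi-likelihood test of edgeR 4.0.16 (TMM scaling, genotype as the only term) in R 4.3.3, and a Benjamini-Hochberg adjusted p under 0.05 made a call. Standard errors were computed from each log2 fold change and its F statistic, and 95% intervals from the t distribution with the degrees of freedom of the fit. Intervals give the uncertainty of the log2 fold change that comes from the spread between libraries. With 3 libraries against 3, an exact two-sided permutation test of 1 gene cannot go below 0.1, so the p of the fit across genes is given. Levels between genes were compared per kb of exon. Replicates differed by more than counting noise (chi-square per degree of freedom 4.32 to 10.1). Alternatives were DESeq2 1.42.0, voom in limma 3.58.1, other scalings, filters and thresholds, the replicate number as a block, sex as a term, control replicate 3 as the only control, and each library left out.

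Members described in every library were those called in any fit and the most abundant per length of each role group, with further members given where their genotypes did not overlap or varied between libraries, which was seen in the values. Of each pathway list the called genes and the most abundant per length were named, and of each cell type list its sum and called genes. A few genes that this rule covers are not reported here. The members and lists were chosen with earlier results of these data known, and the list of immediate early genes after its values were seen. Identical sequence was searched with blastn 2.17.0+ in transcripts (at least 100 bases, 98% identity), and motifs in RefSeq promoters on GRCm38.p6 on both strands. The same samples served every comparison.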

Additional observations from a re-analysis of the deposited data

How the results depend on the processing

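Egr2 kept its direction in all 16 alternatives, with log2 fold changes from 0.61 to 0.93, and its call in 9 (adjusted p from 0.00175 to 0.378). Members called higher numbered 5 with DESeq2 and with no filter on low counts, and 0 at an adjusted p under 0.01, with sex as a term and with control replicate 3 as the only control; leaving out 1 library gave 0 to 2. Members called lower numbered 1 with DESeq2, limma-voom, no filter or the sex term, 2 with control replicate 3 alone, and 0 to 1 without 1 library. Over all genes, calls lower and higher numbered 858 and 671 with no filter, 278 and 140 at 0.01, and 334 and 153 with the sex term. Higher calls numbered 210 with control replicate 3 alone, and leaving out 1 library gave 310 to 530 lower and 175 to 408 higher. With DESeq2 644 genes were called lower and 505 higher. No scaling moved the median of all genes by over 0.1.

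Among the 57 genes followed under every alternative, signs turned for 5 members and Cst3, all with intervals across 0. With the sex term and with control replicate 3 alone, the log2 fold change of Mbp was -0.000232 and -0.000213, of Gjb1 -0.101 and -0.10, of Sox10 0.0098 and 0.00979, and of Cdh19 -0.256 and -0.255. Without 1 library that of Mag ranged from -0.00135 to 0.39, of Sox10 from -0.185 to 0.0212, of Cdh19 from -0.143 to 0.272 and of Cst3 from -0.0134 to 0.101. The causes were not tested.

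Over 13373 genes the replicate numbers did not pair the libraries (correlations of the deviations of same-numbered libraries -0.134, -0.01 and -0.116). Single members differed in this. The deviations of Gjb1, Cdh19 and Fabp7 had the same sign in same-numbered libraries, and those of S100b had opposite signs. Pairing over the members alone was not tested. With the replicate block 462 genes were called lower and 308 higher, and 1 member, Egr2, was called. Of the called genes named, Nrcam, Nefl and Pdgfra lost their calls (adjusted p = 0.0712, 0.0925 and 0.0561 by edgeR).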
